A study of Mus musculus with 564 samples.

Results

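Of 59190 cis-regulatory elements (CREs) of mouse macrophages, 1793 (3.03%) gained acetylation of histone H3 at lysine 27 (H3K27ac) early after lipopolysaccharide (LPS) and had lost the gain by 4 h. These early transient CREs were chosen by their values in vehicle-treated cells. For each stimulus and time, D is the log2 of the mean normalized read count of both vehicle libraries plus 5, minus the same for unstimulated cells (UT). A CRE was taken when D was at least 1 at 30 min or 1 h of LPS, at most 0.3 at 4 h of LPS, and under 1 at every time of IL-4. Of 13607 CREs past the early threshold, 10576 stayed under the IL-4 limit and 1793 of those had returned by 4 h.

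The cells were bone marrow-derived macrophages (BMDMs), primary macrophages grown in culture from the marrow of wild type young adult male C57/BL6 mice. They received vehicle (DMSO) or 1 of 58 clinical kinase inhibitors (CKIs) for 1 h and were then left UT or given 10 ng/mL LPS or 10 ng/mL IL-4 for 30 min, 1 h, 2 h or 4 h. H3K27ac ChIP-seq gave 564 libraries, of which 18 were DMSO (9 groups of 2) and 546 CKI, and 474 of the CKI groups held 1 library and 36 held 2. The UT samples are labelled as 4 h without stimulus while their titles name time 0, and no source used here says whether 2 libraries of a group came from separate cultures, so the spread between them may be technical.

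LPS is sensed by TLR4, which signals through adaptor proteins to NF-kB and to the MAP kinases ERK, JNK and p38. The fastest genes to respond are immediate early genes, which are poised before the stimulus, need no new protein, and are often shut off again by the phosphatases, RNA-binding proteins and repressors they encode. IL-4 acts through JAK kinases and STAT6 and drives macrophages to an alternative state. H3K27ac is placed by the acetyltransferases p300 and CBP at active promoters and enhancers and is removed by histone deacetylases.

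DMSO replicates correlated across CREs with r between 0.959 and 0.982 on the log2 scale, a value that describes these libraries and carries no p. At UT, the promoter CREs of macrophage marker genes had a median level of 595.5 normalized reads over the 10 of 14 markers with such a CRE. Fibroblast markers were at a median of 2.5 (2 of 7), B cell markers at 0.5 (3 of 7) and neutrophil markers at 8.5 (2 of 8). Endothelial markers were at 180.2 (2 of 6), dendritic cell markers at 42 (2 of 6) and the 1 of 8 T cell markers with a promoter CRE at 125, and their part in the values below was not tested. The ratio of the strongest 10% of CREs to the weakest 10%, a measure of contrast, was 53 to 134 in DMSO libraries and 3.34 to 67.2 in CKI libraries, with medians of 75.1 and 17.6.

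To show the DNA under the gains, the central 300 bp of 5 early transient CREs are printed, on the plus strand of mm10. The first 3 are CREs with some of the largest LPS differences, and each holds a match to letters named below. The Pofut2 and Dusp5 windows were added after their values were seen because they hold AP-1 letters. Each is named by the gene with the nearest protein-coding transcription start. Capitals mark matches on either strand to AP-1 (TGANTCA), to the PU.1-type ETS core (GAGGAAGT) or to an NF-kB-like site. A match is a match of letters and not a measured binding site. Windows nearest Il12b (chr11:44380079-44383394), Prr7, Gng4 and Mamstr, also among the largest LPS differences, held no such match and are not printed. The unprinted window of the Lif CRE at chr11:4262214-4263920 held an NF-kB-like match. The printed windows thus do not show how common matches are.

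Il12b, chr11:44377968-44378267: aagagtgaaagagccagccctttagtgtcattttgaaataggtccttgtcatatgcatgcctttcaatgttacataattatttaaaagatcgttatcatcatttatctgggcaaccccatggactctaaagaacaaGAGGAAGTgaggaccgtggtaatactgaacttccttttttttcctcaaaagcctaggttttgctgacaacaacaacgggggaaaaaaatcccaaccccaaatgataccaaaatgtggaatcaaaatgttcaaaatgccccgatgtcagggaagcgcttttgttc
Phldb1, chr9:44734644-44734943: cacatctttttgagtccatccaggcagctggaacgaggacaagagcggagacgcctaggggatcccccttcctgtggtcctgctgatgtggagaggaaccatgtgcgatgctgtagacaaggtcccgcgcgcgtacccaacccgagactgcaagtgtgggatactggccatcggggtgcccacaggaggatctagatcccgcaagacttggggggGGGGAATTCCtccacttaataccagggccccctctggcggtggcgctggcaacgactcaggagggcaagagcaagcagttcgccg
Lif, chr11:4299942-4300241: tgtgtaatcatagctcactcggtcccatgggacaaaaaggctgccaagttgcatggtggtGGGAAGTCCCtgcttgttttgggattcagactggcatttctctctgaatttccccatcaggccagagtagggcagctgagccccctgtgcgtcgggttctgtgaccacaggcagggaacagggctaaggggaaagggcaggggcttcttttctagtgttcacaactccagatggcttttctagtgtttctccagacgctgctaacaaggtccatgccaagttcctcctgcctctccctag
Pofut2, chr10:77251861-77252160: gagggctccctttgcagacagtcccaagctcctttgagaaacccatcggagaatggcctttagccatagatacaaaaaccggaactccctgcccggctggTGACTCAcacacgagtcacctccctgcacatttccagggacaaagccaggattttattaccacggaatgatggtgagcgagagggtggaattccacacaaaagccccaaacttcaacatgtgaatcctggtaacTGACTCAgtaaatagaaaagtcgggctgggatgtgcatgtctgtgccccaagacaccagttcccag
Dusp5, chr19:53511693-53511992: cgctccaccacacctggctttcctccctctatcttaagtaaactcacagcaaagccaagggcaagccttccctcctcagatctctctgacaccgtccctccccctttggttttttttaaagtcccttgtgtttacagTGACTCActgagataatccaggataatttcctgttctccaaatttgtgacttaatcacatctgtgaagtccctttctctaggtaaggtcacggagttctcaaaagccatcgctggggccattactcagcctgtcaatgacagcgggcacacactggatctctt

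The Il12b window, from an intergenic CRE 21945 bp from the start of the gene for the shared p40 subunit of IL-12 and IL-23, held 1 ETS match. The Phldb1 window, from a CRE in an intron 404 bp from a start, and the intergenic Lif window held 1 NF-kB-like match each. The Pofut2 window held 2 AP-1 matches and the Dusp5 window 1.

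In DMSO cells, the course of the early transient CREs follows from how they were selected and is given without a test. Their median D was 1.18 at 30 min of LPS, 0.94 at 1 h, 0.22 at 2 h and -0.03 at 4 h, while that of all CREs stayed between 0.07 and 0.11. D was highest at 30 min in 1245 of them and at 1 h in 548. The early threshold was passed at 30 min only by 948, at 1 h only by 376 and at both times by 469. At 2 h, when the rule set no limit, 167 still had D of at least 1 and 1001 had D of 0.3 or less. At 4 h, 931 were below UT and 85 had D of -1 or less. For comparison, 3530 CREs with D of at least 1 at all 4 LPS times and under 1 at all IL-4 times were taken as sustained.

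**Figure D1:**
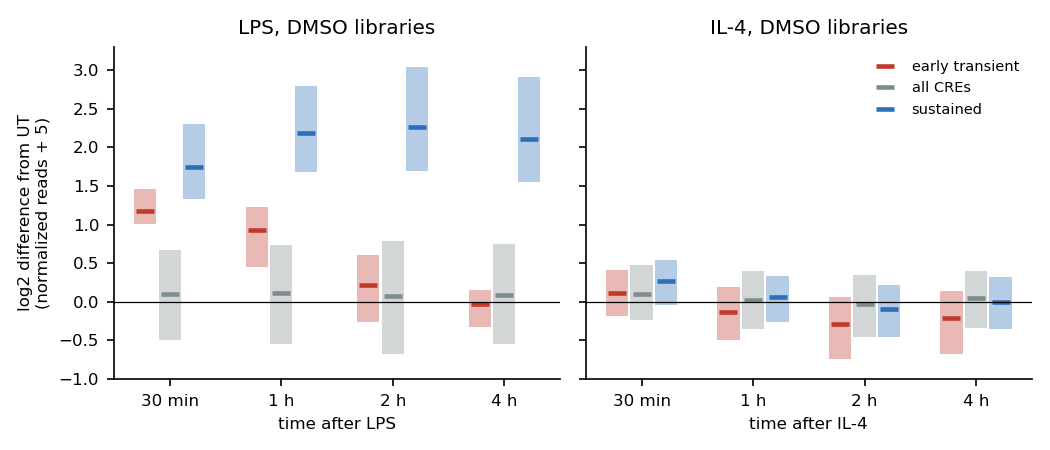
Log2 difference from UT in DMSO libraries (vertical axis) by time after LPS or IL-4 (horizontal axis) for the 1793 early transient CREs, all 59190 CREs and the 3530 sustained CREs. Bars span the lower to the upper quartile and short lines are medians: the early transient median fell from 1.18 at 30 min to -0.03 at 4 h of LPS, while that of the sustained CREs was between 1.74 and 2.26 at all times.

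Most gains were small. D reached at least 2 at 156 CREs, lay from 1.25 to under 2 at 766 and stayed under 1.25 at 871. The CREs next to each threshold show how narrowly some were taken or left out. Just inside the early threshold, the CREs nearest Mcur1, Fam71f1 and Mettl2 had a highest D of 1.00, and just outside it that of the CREs nearest Stk40, Patl1 and Sgk1 rounded to 1.00 too. The Fam71f1 CRE read 4 and 2 at UT against 10 and 12 at 30 min of LPS. The Stk40 CRE, outside, read 357 and 344 at UT against 609 and 802. The CREs nearest Orm1, Mul1 and Umps lay just inside the 4 h limit and those nearest St18, Wdr36 and Asap1 just outside, all with D of 0.30. At the IL-4 limit, the CREs nearest Akap13, Rpl35 and Mrtfa were just inside and those nearest Gm597, Prim2 and Snurf just outside, with a highest D to IL-4 between 0.99 and 1.00.

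The CKI libraries took no part in the choice of CREs and give the test. Each CRE was fitted with limma on log2(value + 5) with condition and compound as factors, and counted as called if the adjusted p was under 0.01 with a log2 difference over 1. Different compounds stand in for replicates in this fit. Shifts that some of them share at a condition were not modelled, so its SE and adjusted p may be too small. At 30 min of LPS, 285 of the 1793 early transient CREs (15.9%) rose against UT, beside 6.04% of all CREs tested. At 1 h, 179 (9.98%) rose, beside 8.42%. The median difference over the early transient CREs was 0.66 at 30 min and 0.50 at 1 h, against 0.11 and 0.12 over all CREs, and 98% of them had a positive difference at 30 min against 57.1% of all. The median fell to 0.07 at 2 h and -0.07 at 4 h, with 0.08 and 0.04 over all CREs.

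Most differences in CKI libraries were thus of the same direction as in DMSO but below the fold threshold. With a log2 difference over 0.5 in place of 1, 1270 (70.8%) were called higher at 30 min, beside 20.6% of all CREs, and 888 (49.5%) at 1 h, beside 22.4%. CKI libraries had a lower contrast than DMSO libraries, and its part in the smaller differences was not tested. In the 6 runs of consecutive CKIs in the column order of the table, used as a technical batch, the median at 30 min was 0.56 to 0.82. At that time 10.2% to 33.3% of early transient CREs were called higher, beside 4.43% to 11% of all CREs, and their share was above that of all CREs in each of the 6 runs. At 1 h the run medians were 0.15 to 0.63. In run 2, 63 early transient CREs (3.51%) were called higher at 1 h, below the 7.72% of all CREs, and in the other 5 runs 8.53% to 21.9% were called, beside 6.61% to 12.4%.

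The larger the gain in DMSO cells, the more often it was called in CKI libraries. At 30 min, 123 of the 156 CREs with D of at least 2 (78.8%) were called higher, 156 of the 766 with D from 1.25 to under 2 (20.4%), and 6 of the 871 with D under 1.25 (0.689%). Of all CREs tested, 6.04% were called at 30 min and 8.42% at 1 h, so CREs with D under 1.25 lay below that share. Of those 871, 845 still had a positive difference at 30 min, beside 57.1% of all CREs, with a median of 0.53, under the fold threshold. Of the 469 CREs past the threshold at both times, 191 (40.7%) were called at 30 min and 151 (32.2%) at 1 h. Of the 948 past it at 30 min only, 91 (9.6%) were called at 30 min and 3 at 1 h. Of the 376 past it at 1 h only, 3 were called at 30 min and 25 (6.65%) at 1 h, below the 8.42% of all CREs. With the early transient CREs split by mean level into 3 equal groups, 9.03% were called at 30 min in the lowest, 20.1% in the middle and 18.6% in the highest group. Of all CREs in the same ranges of level, 2.49%, 8.52% and 7.16% were called.

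CKI libraries also show the return. Against LPS 4 h, 580 early transient CREs (32.3%) were higher at 30 min, beside 3.32% of all CREs, and 322 (18%) were higher at 1 h, beside 1.73%. Against UT at 2 h, 15 were called higher, beside 10.4% of all CREs, and 82 lower (4.57%), beside 10.6%. At 4 h, 57 (3.18%) were called lower, beside 8.37%. Between the early times, 50 were higher at 30 min than at 1 h, beside 0.417%, and 9 were lower, beside 0.718%. All 50 had their higher D at 30 min in DMSO cells and all 9 at 1 h.

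**Figure D2:**
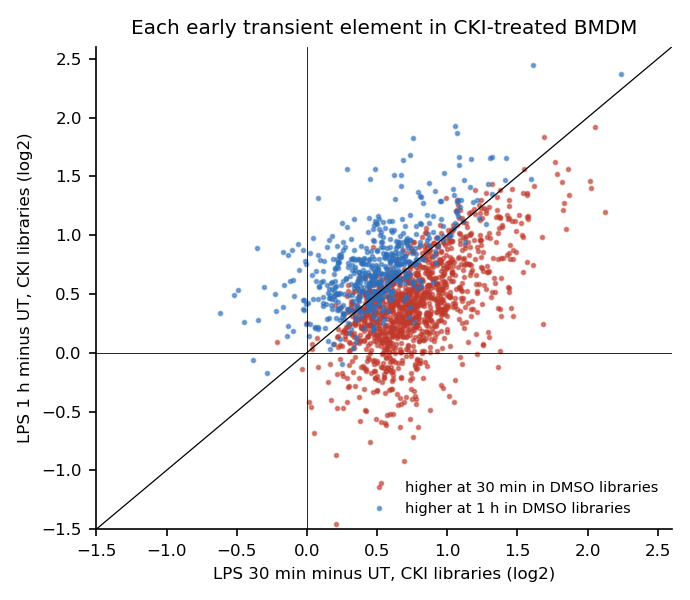
Log2 difference from UT in CKI libraries at 30 min of LPS (horizontal axis) and 1 h of LPS (vertical axis) for each of the 1793 early transient CREs, one point a CRE, with a line of equal values. Red points had the higher D at 30 min in DMSO libraries (1245 CREs, medians 0.74 and 0.41) and blue points at 1 h (548 CREs, medians 0.49 and 0.69).

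IL-4 was set against LPS at matched times in CKI libraries. LPS exceeded IL-4 at 30 min in 348 of them (19.4%), beside 4.47% of all CREs, and at 1 h in 320 (17.8%), beside 7.41%. Against UT, the median difference under IL-4 was 0.08 at 30 min and -0.04 at 1 h, with 0.12 and 0.10 over all CREs. At 1 h of IL-4, 34 (1.9%) were called lower, beside 0.593%. At 2 h this was 150 (8.37%), beside 3%, and at 4 h 122 (6.8%), beside 2.22%. Of the 150 at 2 h, 144 had their higher D at 30 min. The median difference was -0.21 at 2 h and -0.17 at 4 h of IL-4, against 0.00 and 0.05 over all CREs. A limit on D to IL-4 was part of the rule in DMSO cells, so low IL-4 values in the same cells carry no information, and the share of that choice in the CKI values was not tested.

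The early transient CREs stood above the other CREs at 30 min of LPS under each inhibitor taken alone. For this, each CKI was set against its own UT library. At 30 min of LPS, the median over the early transient CREs was above that over all CREs in 58 of 58 CKIs and above 0 in 55, with a lowest value of -0.26 (PH797804), a median of 0.72 and a highest of 1.10 (ONO4059analogue). At 1 h it was above that of all CREs in 52 of 57 CKIs. At 1 h of IL-4 it was above that of all CREs in 0 of 58 CKIs and at 2 h of IL-4 in 0 of 56. By 4 h of LPS it was above that of all CREs in 4 of 55 CKIs. CKIs are not replicates of one treatment, so these counts are a description.

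**Figure D3:**
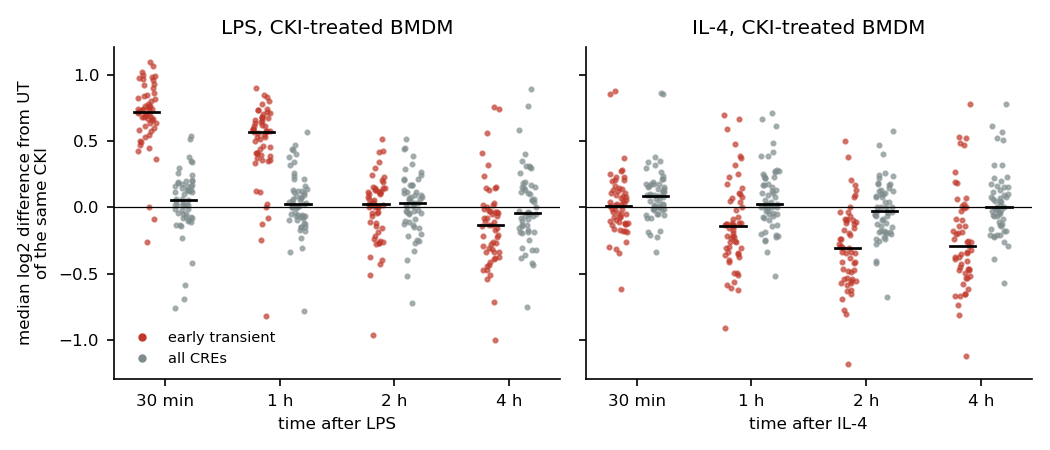
Median log2 difference from the UT library of the same CKI (vertical axis) by time after LPS or IL-4 (horizontal axis), one point a CKI, for the early transient CREs and for all CREs, with black lines at the median over CKIs. The early transient medians stood at 0.72 at 30 min and 0.57 at 1 h of LPS and at -0.31 at 2 h of IL-4.

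At transcription factor genes, the Egr3 and Egr1 CREs were, among the LPS times, high at 30 min only. Egr3, a zinc finger factor of the EGR family, had a promoter CRE 320 bp from its start (chr14:70076110-70077657). It read 25 and 32 at UT, 81 and 112 at 30 min of LPS, 27 and 22 at 1 h, 4 and 12 at 2 h and 6 and 5 at 4 h. Only the 30 min libraries lay above both UT libraries, and those at 2 h and 4 h lay below them. In CKI libraries it rose by 1.68 ± 0.111 (SE, adjusted p = 1.8e-42) at 30 min, was higher than UT in 56 of 58 CKIs, and differed by 0.24 ± 0.11 at 1 h (adjusted p = 0.036), a difference not called.

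Egr1, an immediate early transcription factor that responds to ERK signalling, carried an early transient CRE over its promoter and 5' end (chr18:34859050-34862450). Its values were 106 and 89 at UT, 330 and 373 at 30 min, 91 and 100 at 1 h, 77 and 39 at 2 h and 89 and 104 at 4 h. The 30 min libraries stood apart and all later ones overlapped UT or lay below it. In CKI libraries the log2 difference was 1.38 ± 0.066 at 30 min, positive in 58 of 58 CKIs, and 0.015 ± 0.066 at 1 h, so that 30 min exceeded 1 h by 1.36 ± 0.069 (limma adjusted p = 4.4e-63). Its 1 h difference turned to -0.08 with median centring. At 30 min of IL-4 the Egr1 CRE read 155 and 151 in DMSO cells, above UT. Its CKI difference there was 0.032 ± 0.067 and was not called.

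The intronic CRE of Nr4a1, an orphan nuclear receptor induced by many signals, lay 2741 bp from its start (chr15:101256222-101257799). It read 46 and 34 at UT, 137 and 162 at 30 min and 70 and 87 at 1 h, and both later times were at 27 to 49. It rose by 1.05 ± 0.081 at 30 min in CKI libraries, which became 0.98 and thus not called after median centring. The CRE 1759 bp from a start of Atf3, which encodes a stress-induced repressor of the ATF family, read 72 and 70 at UT, 127 and 181 at 30 min, 67 and 71 at 1 h and 32 and 21 at 2 h. Its CKI difference was 0.51 ± 0.071 at 30 min and -0.91 ± 0.072 at 2 h, neither called. The CRE near Jdp2, another AP-1 repressor, gave 0.32 ± 0.098 at 30 min.

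Cytokine genes held the largest group of list members. Of the 60 CREs within 10 kb of the 23 early cytokine and chemokine genes, 12 (20%) were early transient and 18 were sustained, while over all genes 647 of 26017 CREs in that distance (2.49%) were early transient. In CKI libraries 4 of the 12 (33.3%) were called higher at 30 min and 4 at 1 h, while of all 60 CREs of these genes 24 (40%) and 30 (50%) were called. They lay near 5 genes: Osm, Lif, Cxcl1, Cxcl3 and Csf2.

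Osm and Lif, neighbouring genes of the IL-6 family of cytokines, shared a stretch of 118 kb with 17 CREs, of which 11 were early transient. The timing differed between them. The CRE 4028 bp from the start of Osm (chr11:4239475-4241422) read 66 and 53 at UT, 256 and 267 at 30 min and 96 and 124 at 1 h, and was back at 46 to 75 later. In CKI libraries it rose by 1.17 ± 0.072 at 30 min and exceeded its 1 h level by 0.79 ± 0.074 (limma adjusted p = 7.5e-23). The CRE in an intron of Lif (chr11:4262214-4263920), 4028 bp from that gene's start as well, read 2 and 4 at UT, 23 and 15 at 30 min, 69 and 66 at 1 h and 0 to 9 later. There 30 min lay below 1 h by a log2 difference of -0.87 ± 0.133 (limma adjusted p = 1e-09), and the rise over UT at 1 h was 1.93 ± 0.128. The distal Lif CRE whose sequence is printed above (chr11:4299155-4301029) read 4 and 9 at UT, 51 and 73 at 30 min, 101 and 113 at 1 h and 3 to 24 later. Its CKI differences were 1.07 ± 0.115 at 30 min and 1.87 ± 0.115 at 1 h. Both Lif CREs lost their call at 30 min, though not at 1 h, with median centring or quantile normalization, where the difference was under 1. Not all Lif CREs were later, since that at chr11:4259810-4262142 gave 1.60 ± 0.089 at 30 min and 1.48 ± 0.088 at 1 h. A further Osm CRE (chr11:4231904-4233715) read 142 and 110 at UT, 330 and 391 at 30 min and 127 and 103 at 1 h. Its CKI difference of 0.96 ± 0.061 at 30 min was not called. The Lif CREs at chr11:4258154-4259770 and chr11:4270207-4271792 differed by 0.73 ± 0.087 and 0.65 ± 0.116 at 30 min and were not called. The Osm promoter CRE (chr11:4234651-4238485) was high at UT, at 383 and 371, reached 683 and 847 at 30 min and was 402 and 416 at 1 h.

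Cxcl1, a neutrophil-attracting chemokine, had a promoter CRE (chr5:90889746-90892262) that held its gain for longer. It read 23 and 20 at UT, 165 and 147 at 30 min, 146 and 142 at 1 h, 110 and 84 at 2 h and 16 and 31 at 4 h. Libraries of the first 3 times lay above UT and those of 4 h overlapped it. In CKI libraries it rose by 1.24 ± 0.097 at 30 min (57 of 58 CKIs) and 1.29 ± 0.096 at 1 h (57 of 57), and it was at 0.37 ± 0.099 at 4 h. The 3 CREs of its neighbour Cxcl3 had D between 1.23 and 1.82 at 1 h, and 1 of them, at chr5:90787466-90789102, was called at 1 h (1.14 ± 0.113), a call lost with quantile normalization. The Csf2 CRE, near the gene of the growth factor GM-CSF, had few reads: 1 and 3 at UT and 15 and 12 at 1 h.

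**Figure D4:**
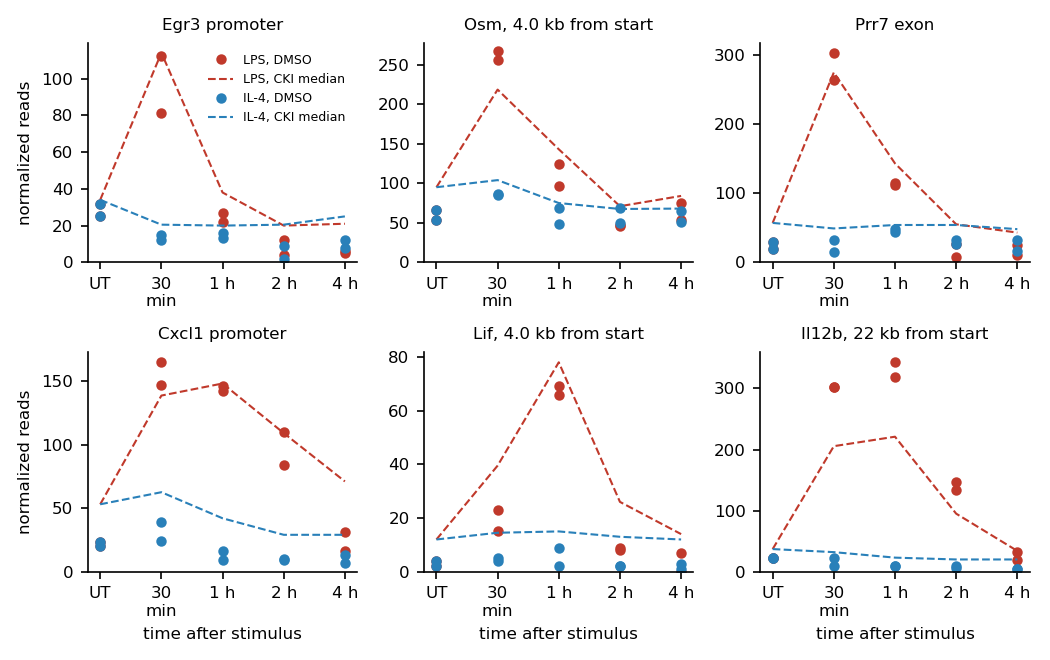
Normalized reads (vertical axis) at UT and 30 min to 4 h after stimulus (horizontal axis) at 6 early transient CREs, with both DMSO libraries as points and the median over CKI libraries as dashed lines, for LPS in red and IL-4 in blue. The Egr3, Osm and Prr7 CREs were highest at 30 min of LPS and the Lif CRE at 1 h, and the Il12b and Cxcl1 CREs were nearly level between both times.

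The 3 CREs with the highest D were a distal pair near Il12b and a CRE of Phldb1 that lies in an intron but within 1 kb of a start. The Il12b CRE at chr11:44377312-44378925 read 23 and 23 at UT, 302 and 303 at 30 min, 318 and 343 at 1 h, 134 and 147 at 2 h and 19 and 33 at 4 h. It rose by 2.24 ± 0.105 at 30 min in 58 of 58 CKIs and by 2.37 ± 0.104 at 1 h. Its neighbour at chr11:44380079-44383394 read 24 and 27 at UT, 195 and 175 at 30 min and 429 and 403 at 1 h, and in CKI libraries 30 min lay below 1 h by -0.84 ± 0.114 (limma adjusted p = 8.5e-12). At 2 h and 4 h of IL-4, both read 4 to 12 in DMSO cells, below UT. The first differed from UT at 2 h of IL-4 in CKI libraries by -0.72 ± 0.107, a difference not called.

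The CRE in an intron of Phldb1, which encodes a pleckstrin homology protein, lay 404 bp from its start (chr9:44733468-44736120). It read 60 and 60 at UT, 614 and 655 at 30 min, 451 and 449 at 1 h, 201 and 214 at 2 h and 73 and 77 at 4 h. Its 8 LPS libraries all lay above UT. In CKI libraries it rose by 2.05 ± 0.064 at 30 min (58 of 58 CKIs) and 1.92 ± 0.064 at 1 h and was at -0.08 ± 0.066 at 4 h. The CRE over an exon of Prr7 (chr13:55470824-55473654), the gene of a proline-rich membrane protein, was shorter lived. It read 19 and 30 at UT, 264 and 303 at 30 min, 112 and 114 at 1 h and 8 and 27 at 2 h, and exceeded its 1 h level by 0.93 ± 0.089 at 30 min in CKI libraries (limma adjusted p = 6.1e-22). The Wnt10a CRE (chr1:74802026-74803942), in an intron of a Wnt ligand gene, was the latest: 5 and 6 at UT, 10 and 13 at 30 min, 106 and 81 at 1 h and 47 and 39 at 2 h. Its CKI difference was 0.76 ± 0.122 at 30 min, not called, and 1.83 ± 0.121 at 1 h.

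Among the other CREs with the largest CKI differences, that 240 bp from the start of Gng4, a G protein subunit gene (chr13:13783127-13785051), read 20 and 9 at UT, 117 and 153 at 30 min, 74 and 68 at 1 h and 8 to 17 later. It rose by 2.03 ± 0.104 at 30 min and by 1.40 ± 0.103 at 1 h. The CRE 4322 bp from the start of Mamstr, in an intron of Rasip1 (chr7:45634580-45636762), read 87 and 73 at UT, 465 and 588 at 30 min and 333 and 318 at 1 h, and rose by 2.02 ± 0.064 at 30 min. An intronic CRE of Trps1, a zinc finger repressor gene (chr15:50694895-50696980), read 151 and 139 at UT, 711 and 809 at 30 min and 400 and 426 at 1 h, and rose by 1.87 ± 0.075. In these 3 CREs, both 30 min libraries lay above every other LPS and UT library, and both 1 h libraries came next. The intergenic CRE 358229 bp from the start of Gja1, the connexin 43 gene (chr10:56736550-56738084), read 33 and 33 at UT and 147 and 187 at 30 min and rose by 1.86 ± 0.112. An intronic CRE of the calcium pump gene Atp2b4 (chr1:133771146-133773043) read 24 and 26 at UT, 211 and 247 at 30 min, 189 and 175 at 1 h and 12 to 53 later, and rose by 1.82 ± 0.094.

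Among the CREs with an AP-1 match printed above, that near Pofut2, an enzyme that adds fucose to proteins, read 29 and 18 at UT, 256 and 220 at 30 min, 172 and 175 at 1 h and 19 and 15 at 4 h (chr10:77251128-77252894). It rose by 1.78 ± 0.097 at 30 min in 58 of 58 CKIs. The CRE 17266 bp from the start of Dusp5, a phosphatase that inactivates ERK (chr19:53511022-53512664), read 12 and 7 at UT, 91 and 111 at 30 min, 55 and 82 at 1 h and 8 and 15 at 4 h, and rose by 1.47 ± 0.11. The Dusp5 promoter CRE (chr19:53528129-53529923) moved less, from 107 and 109 to 211 and 264 at 30 min, and its CKI difference of 0.77 ± 0.064 was not called.

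The other gene groups held fewer early transient CREs than the cytokine genes. Beside the 2.49% over all genes, within 10 kb there were 2 of 35 CREs (5.71%) at AP-1, ATF and MAF factor genes, 3 of 47 (6.38%) at EGR, NR4A and KLF factor genes and 5 of 67 (7.46%) at other immediate early genes. At SRF and actin cytoskeleton genes there were 3 of 71 (4.23%), at MAPK feedback genes 1 of 43 (2.33%) and at TLR4 signalling genes 1 of 73 (1.37%). None lay at the 54 CREs of NF-kB subunits and inhibitors, of which 19 were sustained, or at the 23 of SOCS and cytokine feedback genes, of which 4 were. Altogether 27 early transient CREs lay at 19 list genes, and in CKI libraries 8 of the 27 (29.6%) were called higher at 30 min, beside the 6.04% of all CREs, and 4 (14.8%) at 1 h, beside 8.42%. By list, 2.82% to 40% of all CREs within 10 kb of its genes were called at 30 min and 6.38% to 50% at 1 h. In the actin group, the intronic CRE of Pdlim7, a cytoskeletal scaffold gene, read 133 and 167 at UT and 367 and 334 at 1 h, and rose by 1.15 ± 0.068 at 30 min in CKI libraries. The promoter CRE of Errfi1, a feedback inhibitor of the EGF receptor, read 82 and 94 at UT, 193 and 202 at 30 min and 216 and 234 at 1 h, with a CKI difference of 0.91 ± 0.058 at 30 min in 58 of 58 CKIs, which was not called. CREs at 6 further list genes were not called at either early time. The Tpm1 CRE, at a tropomyosin gene, read 189 and 176 at UT and 447 and 448 at 30 min, with a CKI difference of 0.61 ± 0.054. The CRE near Wdr1, an actin disassembly factor gene, read 7 and 3 at UT and 21 and 29 at 1 h, with a difference of 0.73 ± 0.109 at 1 h. Those near the antiproliferative gene Btg1 and the small GTPase gene Rhob differed by 0.60 ± 0.101 and 0.55 ± 0.085 at 1 h. Both Phlda1 CREs, at 0.72 ± 0.061 and 0.56 ± 0.112 at 30 min, and that near the signalling adaptor gene Traf3, at 0.50 ± 0.084, were also under the fold threshold. Some CREs with D of at least 1.5 gave little in CKI libraries: the CRE 111864 bp from Gadd45g read 8 and 4 at UT and 43 and 27 at 30 min, with a CKI difference of 0.34 ± 0.111, and that in Nfic read 27 and 34 at UT and 93 and 111 at 1 h, with a difference of 0.46 ± 0.086. The CREs in Gas2, Rapgef5 and Dst had differences of 0.38 ± 0.117, 0.43 ± 0.128 and 0.42 ± 0.109 at 30 min.

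Early transient CREs were mostly distal, and a minority lay close to each other. Of them, 11.7% were promoters, meaning within 1 kb of a protein-coding transcription start, against 19.2% of all CREs and 6.32% of the sustained. Their median distance to a start was 18347 bp, against 13177 bp over all CREs, and 47.4% lay in introns and 45.9% between genes. Of the early transient CREs, 602 (33.6%) had another within 25 kb, while 8.54% of all CREs and 9.38% of the sustained had an early transient CRE within that distance. How often sustained CREs lay near each other was not counted, so such closeness may not be particular to the early transient CREs. Linked at distances of up to 50 kb, 1014 stood alone. The longest chain held 15 of the 22 CREs across 179 kb around Smndc1 and Dusp5, the next 13 of the 15 across 162 kb at Atp2b4 and Optc, and 9 of 9 lay across 120 kb at Pam. The 156 early transient CREs in chains of 5 or more were called higher at 30 min in 35.9% of cases, against 10.3% of those standing alone and 6.04% of all CREs tested. Neighbouring CREs share chromatin, so they are not independent of each other.

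Motif letters were counted in the central 300 bp on both strands. Outside promoters, AP-1 (TGANTCA), the site of FOS and JUN dimers, was found in 35.4% of 1583 early transient CREs, 23.6% of 47797 CREs and 28.9% of 3307 sustained CREs. An NF-kB-like site was found in 5.05%, 2.94% and 10.6%. The PU.1-type ETS core (GAGGAAGT), read by a factor that defines macrophage enhancers, was in 10%, 10.4% and 7.17%. The interferon-stimulated response element was in 3.35%, 5.56% and 7.5%, a STAT site (TTCNNNGAA) in 8.65%, 10.2% and 11.7%, and the 4-base-spacer form bound by STAT6 in 6.51%, 10.1% and 8.68%. In promoters, AP-1 matched 9.05% of 210 early transient CREs and 6.26% of all, and the cAMP response element (TGACGTCA) 3.33% and 2.3%. In CKI libraries, the median difference at 30 min was 0.65 in CREs with an AP-1 match outside promoters and 0.66 in those without. It was 0.80 in the 80 CREs with an NF-kB-like match and 0.65 in the 1503 without.

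**Figure D5:**
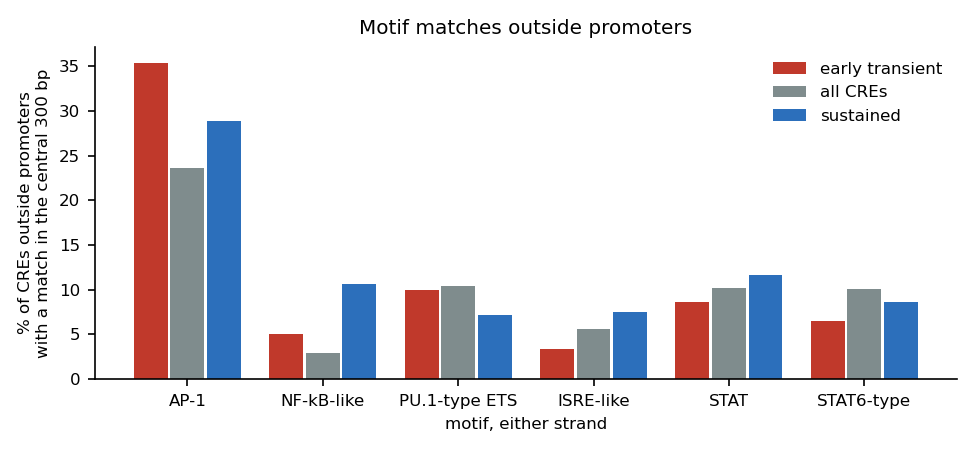
Share of CREs outside promoters, in percent, with a match to each motif in the central 300 bp on either strand (bars), for early transient, all and sustained CREs. AP-1 matched 35.4%, 23.6% and 28.9% of them, and the NF-kB-like site 5.05%, 2.94% and 10.6%.

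To ask whether inhibitors of 1 pathway changed the early gain, each CKI was given 1 value per CRE, the mean of its 30 min and 1 h LPS libraries minus UT. Groups by designated target were compared with all other CKIs over 57 CKIs, since Telatinib has no 1 h LPS library, and CREs were called at an adjusted p under 0.05 and a log2 difference over 0.5. Over the early transient CREs the median early gain was above that of all CREs in 57 of 57 CKIs, by 0.20 to 0.86, and its own value ran from -0.46 (Talmapimod) through a median of 0.63 to 0.92 (Vandetanib). The 10 CKIs of lowest contrast had medians of 0.01 to 0.77 and the 10 of highest contrast 0.63 to 0.88.

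With the 4 p38 inhibitors, 14 early transient CREs (0.781%) were called lower, beside 0.51% of all CREs, with a median difference of -0.39 against -0.29 over all CREs. This rested on 2 compounds: the early gain was -0.46 with Talmapimod and 0.05 with PH797804, but 0.42 with Losmapimod and 0.81 with VX702. Without Talmapimod or without PH797804 the count was 0, without VX702 it was 333 and without Losmapimod 73. Over all CREs the early gain was also low with Talmapimod (-0.764) and PH797804 (-0.431), and was -0.096 with Losmapimod and 0.256 with VX702. PH797804 had the lowest contrast of the CKIs, at 8.14 averaged over its libraries. With contrast as a covariate 6 early transient CREs were called lower, and with quantile normalization 0. Median differences were then -0.33 and -0.108, against -0.272 and -0.004 over all CREs. How much of the p38 values either accounts for was not tested. With the 5 PI3K and mTOR inhibitors, 27 (1.51%) were called higher, below the 3.91% of all CREs, and 10 (0.558%) lower, beside 0.348%. The median difference was 0.09, against 0.19 over all CREs. Those counts ran from 3 to 46 and from 0 to 15 when 1 compound was left out, 3 and 0 of them without Omipalisib. The 6 JAK inhibitors and the 5 MEK or ERK inhibitors gave 0 called early transient CREs in limma, beside 0% of all CREs. At an unadjusted p under 0.05 there were 27 (1.51%) with JAK inhibitors, beside 1.66% of all CREs, and 50 (2.79%) with MEK or ERK inhibitors, beside 3.73%. Effects under the called size were not counted.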

How the data were processed

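H3K27ac ChIP-seq values of 564 libraries were used as the authors deposited them, in 1 table of 59190 CREs on mm10. The authors trimmed single-end reads, mapped them with ShortStack, counted reads around ATAC-seq peaks and scaled each library on peaks that did not vary. The deposited values are normalized read counts rounded to whole numbers, treated here as a score, so no count model was used and the depth behind each value is unknown. Groups were taken from the treatment labels. The chosen CREs, gene lists, motifs and tests were chosen with earlier results of these data known. DMSO values describe the chosen CREs and entered no test. CKI libraries were fitted with limma 3.58.1 in R 4.3.3 (moderated variances, mean trend) on log2(value + 5), for CREs with a mean of at least 10, with Benjamini-Hochberg adjustment over the 59167 tested, and the fit was tested on simulated data. A log2 difference on this scale understates the change of low CREs. Most CKIs had 1 library per condition, so the compounds together set the spread. The fit held no term for run by condition, while the 1 h LPS median ran from 0.15 to 0.63 over runs, so SE and adjusted p may be too small. Genes and contexts came from GENCODE vM21 and sequences from the mm10 genome. Described by name were the 10 CREs of largest D, the 10 called CREs of largest CKI difference, CREs within 10 kb of list genes, those next to each threshold, and those with D of at least 1.5 and the lowest CKI difference. Thresholds were applied to D rounded at 9 decimals. Other pseudocounts, filters, scalings and left-out libraries were tried.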

Additional observations from a re-analysis of the deposited data

Results flagged for a closer look

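Medians over the early transient CREs were checked for a compound far from the others (Dixon's ratio). Of 58 sets, within the 6 runs of CKIs or the groups by designated target, 11 held one, all within runs. Chance alone gives about 1 in 20 sets if they are independent. These sets overlap, since the values of a CKI share its UT libraries and the early gain averages 2 of the times. At 30 min of LPS, Afatinib (-0.088, others 0.45 to 0.73) and PH797804 (-0.26, others 0.69 to 1.10) stood low. At 1 h of LPS Volasertib stood low, at 0.126. At 2 h of LPS Talmapimod stood low, at -0.97, and at 4 h Losmapimod stood high, at 0.41. In the early gain, the mean of both early times, Talmapimod (-0.46, others 0.18 to 0.67) and PH797804 (0.052, others 0.51 to 0.89) stood low. Under IL-4, SGX523 stood high at 30 min (0.88), BMS387032 at 1 h (0.70), and TG100572 (-0.088) and Silmitasertib (0.38) at 2 h. Over all CREs, Afatinib and PH797804 were at -0.585 and -0.757 at 30 min of LPS. Volasertib, Talmapimod and Losmapimod were there at -0.334, -0.726 and 0.406 at 1 h, 2 h and 4 h. The all-CRE early gains of Talmapimod and PH797804 were -0.764 and -0.431. Under IL-4, the all-CRE medians of SGX523, BMS387032, TG100572 and Silmitasertib were 0.868, 0.714, 0.133 and 0.471. The part of such shifts was not tested.

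In limma on the early gain, each group against all other CKIs, calls came with p38 and with PI3K and mTOR inhibitors. JAK inhibitors and MEK or ERK inhibitors gave 0. With p38 inhibitors 14 early transient CREs (0.781%) were lower, close to the 0.51% of all CREs. The count was 0 without Talmapimod, without PH797804 or with quantile normalization. With PI3K and mTOR inhibitors 27 (1.51%) were higher, below the 3.91% of all CREs, and 10 (0.558%) lower, beside 0.348%.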

How the results depend on the processing

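By replicate number, no paired analysis was possible because the numbered replicates are DMSO libraries, whose values entered no test. CKI libraries were matched by compound in the fit, and without that term 285 early transient CREs were called at 30 min and 177 at 1 h of LPS. The rule gave 1155 CREs with a pseudocount of 20 and 1695 to 2139 when 1 DMSO library was left out. Of the 1793, 51% were kept with that pseudocount and 72.5% or 73.6% without UT replicate 1 or 2. With a log2 difference over 0.5, calls higher were 1270 (LPS 30 min), 888 (1 h), 250 (2 h), 1062 and 990 (LPS over IL-4 at 30 min and 1 h), 370 (30 min over 1 h), 1286 and 1056 (30 min and 1 h over 4 h). Calls lower were then 306 (LPS 2 h), 263 (4 h), 249, 517 and 469 (IL-4 at 1 h, 2 h and 4 h) and 92 (30 min against 1 h). With a mean of at least 50, 110 were higher at 1 h and 7 at 2 h, and the 2 h median was -0.19. With a pseudocount of 1, 32 were higher at 2 h and 15 were lower at 30 min than at 1 h. With median centring, 68 were lower at 1 h of IL-4. In run 2 the medians were 0.15 at 1 h and -0.19 at 2 h of LPS. The IL-4 30 min median turned from 0.08 to -0.08 with median centring or quantile normalization. For p38 inhibitors, calls lower were 4 with run and 6 with contrast as a covariate, 74 with a pseudocount of 1 (2 were then higher), 0 with quantile normalization and 0 to 333 with 1 compound left out (0 to 2 higher). For PI3K and mTOR inhibitors, calls higher were 5 with quantile normalization and 3 to 46 with 1 compound left out, and calls lower 2 with run or contrast as a covariate and 0 to 15 with 1 compound left out. Leaving out the tenth of CKI libraries with the lowest contrast was chosen after seeing the data and moved no count by over 1.5 times. The cause of each shift was not tested.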
